A study of Mus musculus with 8 samples.

Results

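A list of 45 homeobox genes outside the Dlx family was followed in neurons of 3 nuclei of the mouse hypothalamus. The genes were chosen by name and are transcription factors with a homeodomain of the NK, paired, LIM, sine oculis, TALE, POU, CUT and zinc-finger classes. All 45 had at least 1 probe on the array, and 35 of them had a probe that the scanner software flagged as well above background on each array of 1 or more nuclei. A probe with that flag is called detected below. These 35 are set here against the 27422 genes that were tested in the same way.

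The samples were pooled neurons of the Nkx2-1 lineage, cut out by laser microdissection from female mice 2 months of age. Nkx2-1-CreERT2 x Rosa-ZsGreen animals were used throughout, and tamoxifen had been given so that cells in which the Nkx2-1 gene drove the recombinase became green. The dorsomedial hypothalamus (DMH) gave 3 samples, the ventromedial hypothalamus (VMH) 3 samples and the arcuate nucleus (Arc) 2 samples, each on its own array read in the red Cy5 channel. Every group thus carried the same driver, the same reporter and the same drug, and unlabelled cells are not analysed here. The labels give neither the number of animals nor the animals behind a sample, so the p-values speak of the spread among these 8 samples, part of which may be technical. The question put by the design is which genes set the labelled neurons of the 3 nuclei apart.

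Homeobox genes encode transcription factors that share the homeodomain, a helical fold that binds short DNA sequences, many with a TAAT core. In the embryo they divide the forebrain into regions and then into cell types, and many stay on in mature neurons, where they keep up the genes of a cell's identity. Members of the TALE class often bind DNA as partners of other homeodomain proteins, LIM-class members work through LIM-binding adaptors, and POU, CUT and zinc-finger members carry a further DNA-binding or protein-binding part beside the homeodomain.

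The nuclei could be told apart by their markers. Pomc, the precursor of melanocortin peptides, had a log2 signal of 6.44 and 6.11 in Arc, against 0.40 to 0.83 in DMH and -0.23 to 1.47 in VMH. Fezf1, a transcription factor of the VMH, was at 1.36 to 1.76 in VMH and not detected in DMH or Arc, and Grp, a peptide gene, was at 1.32 to 1.79 in DMH and not detected in VMH or Arc. Nr5a1, the defining factor of the VMH, was highest there at 3.00 to 3.34, and was also detected in DMH at 1.79 to 1.95 and in Arc at 2.44 and 2.21. Signals are given throughout as log2 of the processed spot signal minus the 75th percentile of its array, so 0 is the level of that percentile. The share of probes detected was 72.4% to 78.7% per array. The 75th percentile of the raw signal was 2107 to 3042 in DMH, 1866 to 2036 in VMH, and 1818 and 1806 in Arc. In such pooled samples fewer cells that express a gene and less RNA per cell cannot be told apart.

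The probes behind the 8 genes whose differences passed a test are shown by their first 30 of 60 bases, because each signal below is the hybridisation to such an oligonucleotide. Positions are those of the whole probe in mm9 as the array files give them, and the files do not say whether a probe lies in coding or untranslated sequence.
Bsx (chr9:40685703-40685762): ttccagaaccggcggatgaagcataaaaag
Hmx2 (chr7:138700012-138700071): cttgaggatgggtaggggcaaaacgaggag
Hmx3 (chr7:138688330-138688389): atttgaggcgcttctcctcttatttttggt
Six6 (chr12:74045825-74045884): tgacctagactgcgttaaattcgaggcagt
Pbx3 (chr2:34026999-34027058): caccctggattgaaaagtcttccttgtggt
Tshz2 (chr2:169711933-169711992): aagaggacacagactctaaattcaagtgta
Zfhx3 (chr8:111485354-111485413): catggagactaacagaaccgcaagggactt
Zfhx4 (chr3:5413028-5413087): gacagtgagctgagccagaagctacaagac
None of these 8 probes shares a run of 20 bases with a probe of another gene name on the array.

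Among the 3 nuclei, 7 of the 35 measured members differed by the moderated F-test of limma with Benjamini-Hochberg adjustment over all genes, namely Bsx, Hmx2, Hmx3, Six6, Pbx3, Tshz2 and Zfhx3. Of all 27422 genes tested, 1.72% passed that test. An unadjusted p under 0.05 was found for 21 members, against 17.7% of all genes. Relative to the mean of the other 2 nuclei, DMH had 2 members higher and 1 lower, where 0.368% and 0.474% of all genes were called. VMH had none higher and 4 lower, against 0.872% and 0.47% of all genes, and Arc had 1 higher and 1 lower, where 0.193% and 0.419% of all genes did so. An eighth gene, Zfhx4, passed in VMH alone and not in the F-test. The 3 comparisons use the same arrays and their differences add up to 0, so a gene low in VMH is by construction pulled up in the others. The median difference over the 35 members was 0.51 in DMH, -0.08 in VMH and 0.08 in Arc, beside -0.04, 0.01 and 0.04 over all genes. Lhx2 passed the filter through Arc alone and Satb1 and Pou3f4 through DMH alone, so these counts are given as a description.

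**Figure D1:**
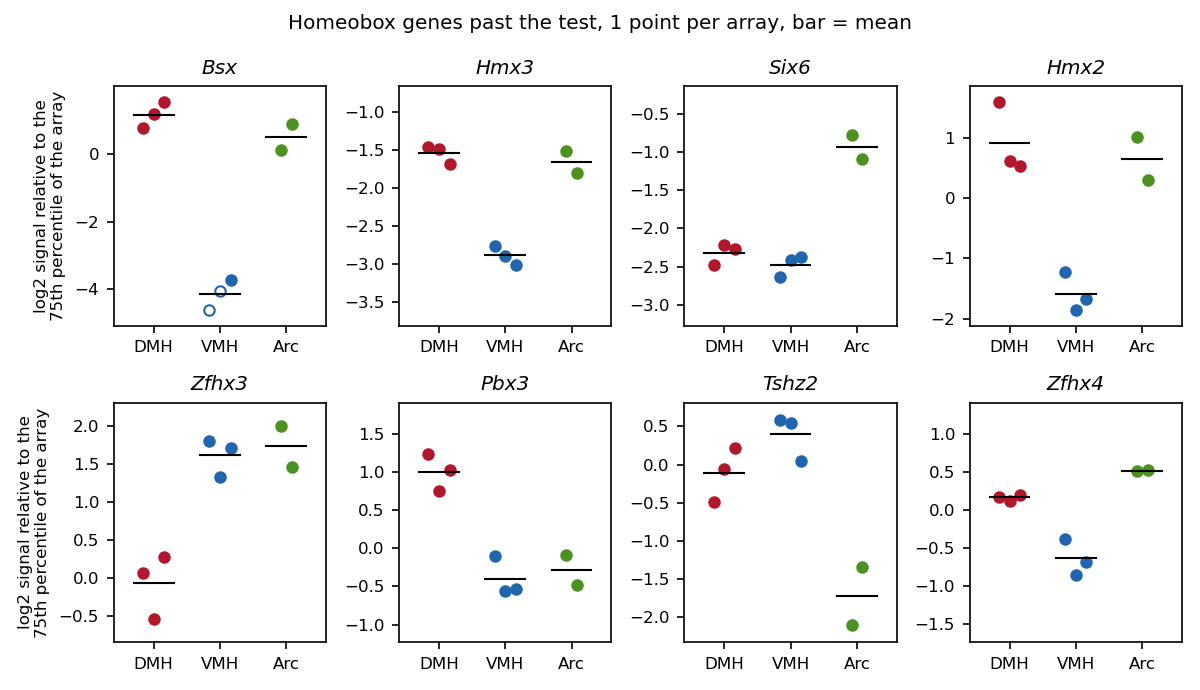
Log2 signal relative to the array's 75th percentile for Bsx, Hmx3, Six6, Hmx2, Zfhx3, Pbx3, Tshz2 and Zfhx4, 1 point per array and a bar at the mean of each nucleus, with open points where the probe was not detected. The vertical scale differs between panels. Bsx, Hmx2, Hmx3 and Zfhx4 are lowest on the VMH arrays, Six6 is highest and Tshz2 lowest on the Arc arrays, Pbx3 is highest and Zfhx3 lowest on the DMH arrays.

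Of the 8 measured NK-class genes, 3 passed, namely Bsx, Hmx2 and Hmx3, and each of these was low in VMH. Bsx, a brain homeobox gene that the mouse needs for normal Npy and Agrp expression in the arcuate nucleus, was near background in VMH neurons and strong in the other nuclei. Its log2 signal was -4.60, -4.05 and -3.72 on VMH arrays 1, 2 and 3, against 0.76, 1.16 and 1.52 in DMH and 0.12 and 0.86 in Arc. It was detected on 1 of the 3 VMH arrays and on all arrays of DMH and Arc, and the VMH arrays lay below every other array. Relative to the mean of DMH and Arc, Bsx was lower in VMH by at least 28.8-fold (log2 difference -4.94 ± 0.30 SE, adjusted p = 0.000677). The words "at least" mark a fold whose dimmer side holds arrays without detection. On those arrays the dim value was replaced for the fold by the lowest detected signal of the array, unless the probe itself was higher.

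Bsx was also higher in DMH than the mean of VMH and Arc, by at least 7.57-fold (log2 difference 2.96 ± 0.30 SE, adjusted p = 0.011). Between pairs of nuclei, 0.441% of all genes were higher and 0.788% lower in DMH than in VMH, 0.66% and 0.317% in VMH than in Arc, and 0.244% and 0.182% in DMH than in Arc. For Bsx, DMH exceeded VMH by at least 36.2-fold (5.27 ± 0.33 SE, adjusted p = 0.00103), and VMH was below Arc by at least 22.9-fold (-4.61 ± 0.37 SE, adjusted p = 0.00288). Between DMH and Arc the log2 difference was 0.66 with a 95% interval of -0.19 to 1.51 (adjusted p = 0.413), so a difference of either sign remained within the interval. The higher value of DMH against the mean of the others passed without each array in turn except DMH replicate 2, where adjusted p was 0.0505. The lower value of VMH passed with each array left out in turn, with differences of -5.14 to -4.70.

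Hmx2 and Hmx3 followed the same order. Both are NK-class genes of the inner ear and the hypothalamus, and in the mouse the pair is needed for Ghrh expression in the arcuate nucleus. Hmx2 had log2 signals of -1.23, -1.85 and -1.67 in VMH, against 1.59, 0.61 and 0.53 in DMH and 1.01 and 0.30 in Arc. Hmx3 had -2.76, -2.90 and -3.01 in VMH, against -1.47, -1.49 and -1.69 in DMH and -1.52 and -1.81 in Arc. For both genes every VMH array lay below every other array, and both genes were detected on all 8 arrays.

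Hmx2 was 5.15-fold lower in VMH than in the mean of DMH and Arc (log2 difference -2.36 ± 0.32 SE, adjusted p = 0.0166), and Hmx3 was 2.43-fold lower (-1.28 ± 0.17 SE, adjusted p = 0.0148). DMH exceeded VMH by 2.49 for Hmx2 and by 1.34 for Hmx3 on the log2 scale (adjusted p = 0.0218 and 0.0201). These calls were lost in 6 and 8 of 18 other settings, each VMH array left out among them, with adjusted p up to 0.0869. The VMH minus Arc difference was -1.22 for Hmx3 (adjusted p = 0.0445) and -2.24 for Hmx2 (adjusted p = 0.0509). That call of Hmx3 was lost in 14 of 18 other settings, among them background correction by normexp, which models the local background (adjusted p = 0.0895), quantile normalization (0.0608) and each array left out. DMH and Arc differed by 0.25 for Hmx2, with a 95% interval of -0.66 to 1.16, and by 0.11 for Hmx3, with an interval of -0.37 to 0.59. The lower value in VMH did not pass once a VMH array was left out: without VMH replicates 1, 2 and 3 in turn, adjusted p was 0.0596, 0.0785 and 0.081 for Hmx2 and 0.0654, 0.0769 and 0.0795 for Hmx3. With normexp that difference was -0.77 for Hmx3.

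Bsx, Hmx2 and Hmx3 were thus low in the same 3 samples, and Hmx2 and Hmx3 are also neighbours on chromosome 7, with their probes 11.7 kb apart in mm9. Another 5 pairs of members lay near each other by their probes: Six2 and Six3 (60.6 kb), Nkx2-2 and Nkx2-4 (99.0 kb), Emx2 and Vax1 (298.5 kb), Lmx1b and Pbx3 (532.0 kb), and Irx3 and Irx5 (562.4 kb). In none of those 5 pairs did both genes pass a test. Six2, Irx3 and Irx5 were not tested because they did not pass the filter, so the pairs that hold them could not have done so. The 250 bases upstream of the RefSeq starts of Bsx, Hmx2 and Hmx3 are printed because these 3 genes were low together. They were read from RefSeq's promoter table for GRCm38.p6 on the plus strand, with capitals at matches to 2 motifs on either strand. The first is the GC box, spelled GGGCGG. The other is the TATA box, spelled TATAAA.
Bsx (chr9:40873877-40874126): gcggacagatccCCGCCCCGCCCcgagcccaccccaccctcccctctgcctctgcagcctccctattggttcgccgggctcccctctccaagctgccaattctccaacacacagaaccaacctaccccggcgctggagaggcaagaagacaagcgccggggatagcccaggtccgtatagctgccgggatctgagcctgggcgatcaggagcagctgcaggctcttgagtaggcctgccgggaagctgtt
Hmx2, first start (chr7:131548507-131548756): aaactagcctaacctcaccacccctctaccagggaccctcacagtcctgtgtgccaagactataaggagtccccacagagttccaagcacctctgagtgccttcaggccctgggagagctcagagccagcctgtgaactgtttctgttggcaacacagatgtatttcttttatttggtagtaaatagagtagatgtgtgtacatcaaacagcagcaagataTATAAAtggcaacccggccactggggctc
Hmx2, second start (chr7:131554043-131554292): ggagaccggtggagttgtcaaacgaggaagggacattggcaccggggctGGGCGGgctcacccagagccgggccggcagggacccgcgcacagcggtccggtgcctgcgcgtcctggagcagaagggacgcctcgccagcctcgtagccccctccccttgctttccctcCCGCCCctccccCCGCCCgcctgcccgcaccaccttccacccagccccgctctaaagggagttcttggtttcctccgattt
Hmx3 (chr7:131542713-131542962): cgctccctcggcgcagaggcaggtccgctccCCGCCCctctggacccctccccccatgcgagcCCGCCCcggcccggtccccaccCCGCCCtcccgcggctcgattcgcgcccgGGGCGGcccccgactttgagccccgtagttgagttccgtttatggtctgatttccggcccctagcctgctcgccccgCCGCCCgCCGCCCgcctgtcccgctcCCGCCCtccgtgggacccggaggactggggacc
Counting overlapping matches on both strands, the GC box occurred 2 times in the Bsx window, 0 and 3 times in the Hmx2 windows and 7 times in the Hmx3 window. Of 32851 RefSeq promoter windows of the same length, 32.7% held it. TATAAA occurred 1 time, in the first Hmx2 window, and in 12.4% of all windows. Neither TAAT, found in 54.9% of all windows, nor CAAGTG, the core of an NK2-class site and found in 11.6%, was among the letters of these 4 windows. The matches describe the letters only.

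Nkx2-1, the gene whose activity marked the cells, was present in all samples and was read as a check of the labelled cells. Its log2 signal was 0.34 and 0.06 in Arc, against 1.26, 1.12 and 1.25 in DMH and 1.09, 1.19 and 1.07 in VMH. Both Arc arrays lay below all others, and the difference from the mean of DMH and VMH was -0.97 ± 0.17 SE with an adjusted p of 0.0682, which did not pass the threshold of 0.05. Its paralogue Nkx2-4 was at -0.39 to 0.35 in DMH, -0.68 to -0.17 in VMH, and -0.67 and -0.44 in Arc, with overlapping groups. Nkx2-2, which patterns the ventral neural tube, was at 0.81 to 2.03 in DMH and 1.05 to 1.95 in VMH. In Arc it was at 0.60 on one array and -2.67 on the other, so the spread within Arc was large beside its difference of -2.56 from the mean of DMH and VMH (adjusted p = 0.185). Vax1, a gene of the optic stalk and ventral forebrain, and Emx2, a patterning gene of the cortex, had overlapping groups between -4.25 and -1.78 and between -2.94 and -1.48.

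Of the 2 measured genes of the sine oculis class, Six6 passed, as higher in Arc. Six6, a factor of the eye, the pituitary and the ventral hypothalamus, had log2 signals of -0.77 and -1.09 in Arc, against -2.48, -2.22 and -2.27 in DMH and -2.64, -2.42 and -2.38 in VMH. The Arc arrays stood above all others and the DMH and VMH arrays overlapped. Six6 was 2.78-fold higher in Arc than in the mean of the others (log2 difference 1.48 ± 0.19 SE, adjusted p = 0.0262). The DMH minus Arc difference was -1.40 and the VMH minus Arc difference -1.55 (adjusted p = 0.0479 and 0.021). The DMH minus Arc call was lost in 12 of 18 other settings, each array left out among them, with adjusted p up to 0.123. The VMH minus Arc call was lost in 7 of the 18. DMH and VMH differed by 0.16, with a 95% interval of -0.28 to 0.60. The call in Arc held without DMH replicate 1 or Arc replicate 2 and was lost when any other single array was left out, with adjusted p of 0.0598 to 0.0915. Of 5 mammillary markers 3 were measured, with summed linear signals of all 5 of 15.4 to 19.3 in Arc, against 2.96 to 4.14 in DMH and 2.53 to 6.91 in VMH. Foxb1 was dark on all arrays, Cartpt is also known from Arc neurons, and the part of mammillary cells in the value of Six6 was not tested.

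Six3, the close relative of Six6 and likewise a forebrain and eye gene, had its highest values on the same 2 arrays. Its log2 signal was 2.24 and 2.82 in Arc, against 0.92, 0.89 and 1.38 in DMH and 1.02, 1.18 and 1.72 in VMH. The difference of Arc from the mean of the others was 1.35 ± 0.27 SE, which did not pass (adjusted p = 0.092). A second Six3 probe was detected on no array. Six2, a gene of kidney progenitors, did not pass the filter and was detected on 5 of 8 arrays.

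Among TALE genes, Pbx3 was the one that passed. Pbx proteins bind DNA together with other homeodomain proteins. A second Pbx3 probe was detected on 2 of the 3 DMH arrays and on no VMH or Arc array. On DMH replicate 2 that probe was at -6.58 without detection, so it did not pass the filter. The brighter probe of Pbx3 had log2 signals of 1.24, 0.75 and 1.03 in DMH. Its values were -0.10, -0.56 and -0.54 in VMH and -0.09 and -0.48 in Arc. The DMH arrays lay above all others, and Pbx3 exceeded the mean of VMH and Arc by 2.55-fold in DMH (log2 difference 1.35 ± 0.21 SE, adjusted p = 0.0373). DMH exceeded VMH by 1.41 (adjusted p = 0.0369), and its difference from Arc of 1.29 had an adjusted p of 0.0941. The DMH minus VMH call was lost in 10 of 18 other settings, with adjusted p up to 0.14. The call against the mean of the others was lost when any 1 of the 8 arrays was left out, with differences of 1.23 to 1.48 and adjusted p of 0.0543 to 0.131.

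Pknox2, another TALE partner, had the order DMH, VMH, Arc without passing. It was at 1.28, 0.77 and 0.95 in DMH, 0.29, 0.41 and 0.76 in VMH, and -0.37 and -0.71 in Arc (F-test adjusted p = 0.0569). The DMH arrays lay above and the Arc arrays below all others. Meis3 was at 1.24 to 2.32 in DMH and 1.81 to 2.02 in VMH, and the Arc arrays stood above these at 2.70 and 2.57 (adjusted p = 0.318). That probe shares a run of 20 bases with 1 probe of another gene name. Of its other probes, also detected on all arrays, one had Arc above the rest at 2.35 and 2.53. The other had Arc at -0.18 and -0.37, within the range of the other arrays of -0.54 to 0.18. Pbx2 had overlapping groups between -2.08 and -1.05. Meis1, Meis2 and Irx5 were detected on no array, and Irx3 was on 3 of 8.

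Of the zinc-finger homeobox genes, all 6 were detected on all arrays, and the 3 that passed each set a different nucleus apart. Zfhx3, known in the mouse as a factor of the adult suprachiasmatic clock, was low in DMH. Its log2 signal was 0.07, -0.54 and 0.28 in DMH, against 1.80, 1.33 and 1.71 in VMH and 2.00 and 1.46 in Arc. The DMH arrays lay below all others, and Zfhx3 was 3.33-fold lower in DMH than in the mean of the others (log2 difference -1.73 ± 0.25 SE, adjusted p = 0.0326). The DMH minus VMH difference was -1.68 (adjusted p = 0.0393), and the VMH minus Arc difference was -0.12, with a 95% interval of -0.85 to 0.61. The DMH minus VMH call was lost in 10 of 18 other settings, with adjusted p up to 0.137. The call against the mean held without Arc replicate 2 and was lost when any other single array was left out, with adjusted p of 0.0635 to 0.113. Of 6 markers of the suprachiasmatic nucleus, 5 were measured. The summed linear signal of all 6 relative to the 75th percentile was 33.9 to 48.2 in DMH, 8.37 to 13.8 in VMH, and 12.4 and 19.4 in Arc. Of the 5, 1 was called higher in DMH, beside 0.368% of all genes, and their median log2 difference there was 0.76. Prok2 was dark on all arrays, and the part of such cells in the result was not tested.

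Zfhx4, the closest relative of Zfhx3, had another pattern. Its log2 signal was -0.38, -0.85 and -0.68 in VMH, against 0.17, 0.12 and 0.20 in DMH and 0.51 and 0.52 in Arc. The groups did not overlap in the order VMH, DMH, Arc, and Zfhx4 was 1.97-fold lower in VMH than in the mean of the others (log2 difference -0.98 ± 0.17 SE, adjusted p = 0.041). Another Zfhx4 probe, detected on 6 arrays, had -3.94, -5.75 and -4.38 in VMH, against -1.76, -2.60 and -2.26 in DMH and -2.20 and -2.61 in Arc. VMH replicates 2 and 3, at -5.75 and -4.38, were the arrays on which the dimmer probe was not detected, so the size of its difference is not given. The call was lost when any 1 of the 8 arrays was left out, with adjusted p of 0.0701 to 0.169.

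Tshz2, a teashirt-type factor, was low in Arc. It had log2 signals of -2.11 and -1.35 in Arc, against -0.49, -0.06 and 0.22 in DMH and 0.59, 0.55 and 0.05 in VMH. The Arc arrays lay below all others, and Tshz2 was 3.67-fold lower in Arc than in the mean of DMH and VMH (log2 difference -1.87 ± 0.30 SE, adjusted p = 0.0466). VMH exceeded Arc by 2.13 (adjusted p = 0.0351). The call passed without Arc replicate 2, at -2.26, and was lost when any other single array was left out, with adjusted p of 0.065 to 0.149. It was also lost with the mean of its 2 probes, where the difference was -1.30 and adjusted p was 0.165. The VMH minus Arc call of Tshz2 was lost in 10 of 18 other settings, the mean of probes among them (1.24, adjusted p = 0.227). Tshz1 was at -2.46 to -1.07 in Arc, -0.72 to -0.17 in DMH and -1.25 to -0.41 in VMH (adjusted p = 0.217). Tshz3 and Zeb2, a repressor needed for the fate of forebrain interneurons, had overlapping groups.

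**Figure D2:**
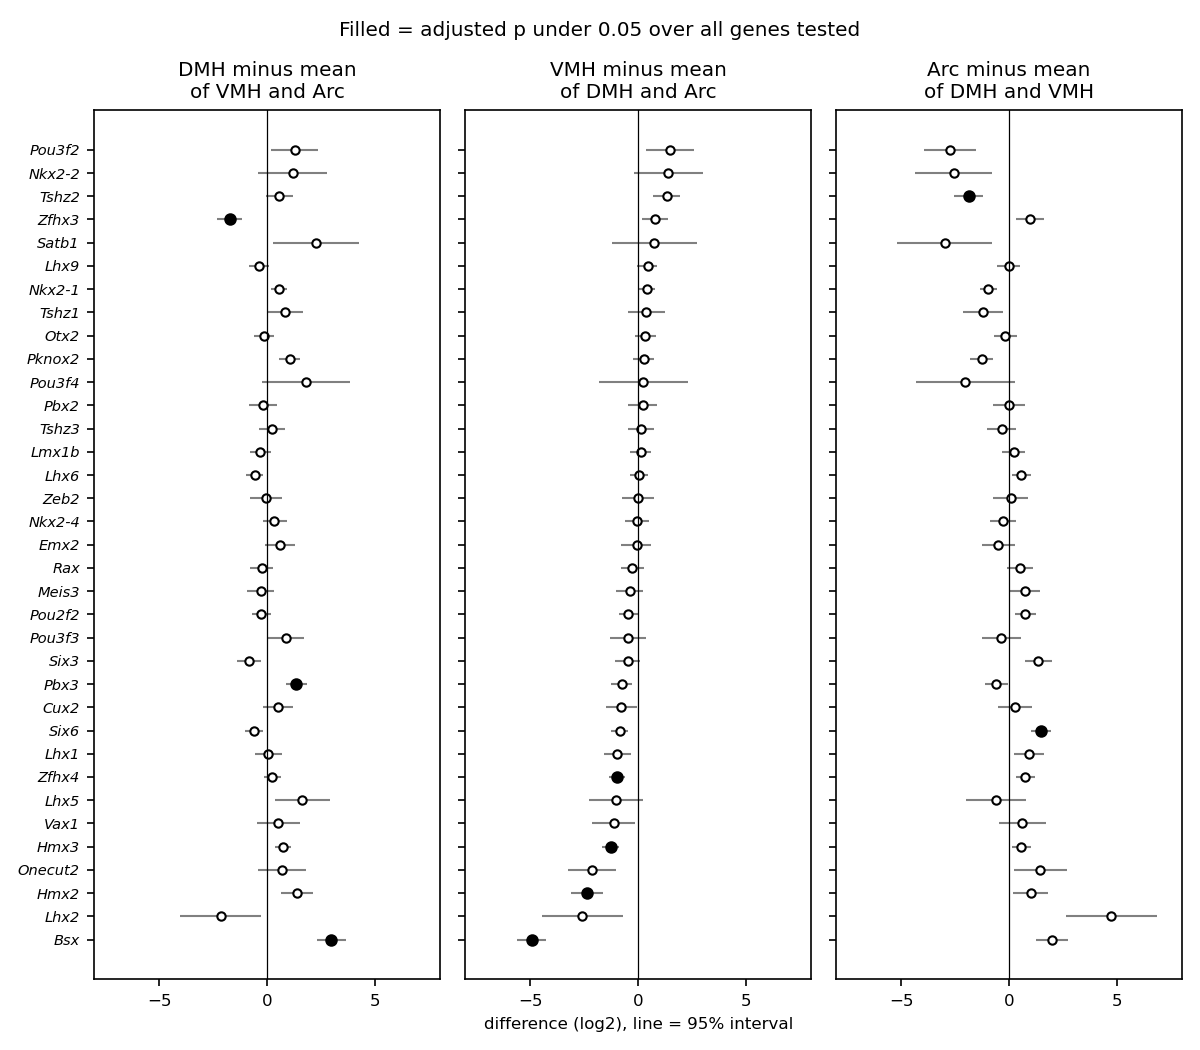
Log2 difference of each nucleus from the mean of the other nuclei for the 35 measured homeobox genes, 1 panel per nucleus, with 95% intervals and filled points where adjusted p was under 0.05. Bsx at -4.94 and Hmx2 at -2.36 stand lowest among filled points in VMH. Lhx2 at 4.73 has the highest value and a wide interval in Arc, and was not detected on most DMH and VMH arrays.

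No LIM-class gene passed on the probe that stood for it, and Lhx1, Lhx6 and Lhx9 read differently on their several probes. Lhx2, a factor of the eye, the cortex and hypothalamic tanycytes, had log2 signals of -0.44 and -1.49 in Arc. It was detected on 1 of the 6 other arrays, DMH replicate 3, at -3.31. Lhx2 passed the filter through Arc alone, so its difference is given as a description. Arc exceeded the mean of DMH and VMH by at least 10.7-fold. The fitted log2 difference of 4.73 took the values without detection as they were. It had an interval of 2.65 to 6.82 and did not pass (adjusted p = 0.0781). Tanycytes, ependymal cells that line the floor of the third ventricle, lie beside Arc. Of 11 tanycyte markers 10 were measured, and Adm was dark on all arrays. The summed linear signals of all 11 were 5.24 and 6.25 in Arc, against 2.83 to 3.35 in DMH and 4.53 to 6.09 in VMH. Of the 10, 3 passed the F-test, beside 1.72% of all genes. Called higher were 0 in Arc, 2 in VMH and 1 in DMH, beside 0.193%, 0.872% and 0.368% of all genes. Called lower were 0 in Arc, 1 in VMH and 1 in DMH, beside 0.419%, 0.47% and 0.474%. The median log2 difference of the 10 markers in Arc was 0.22. The part of such cells in the value of Lhx2 was not tested. Rax, a paired-class gene that tanycytes also express, was at -1.82 and -1.24 in Arc, -2.29 to -1.61 in DMH and -2.12 to -1.97 in VMH, with overlapping groups.

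Lhx1, which marks neurons of the suprachiasmatic nucleus and other hypothalamic cells, gave different answers on its 2 probes. They were compared after the values had been seen, and the first 30 bases of both are shown for that reason.
Lhx1, brighter probe (chr11:84335442-84335594): agtgtcgccaaagagaacagcctccactcg
Lhx1, second probe (chr11:84331888-84331947): tatgtaaaaaggtgttgtttacacgaggca
On the brighter probe Lhx1 was at 0.69, 1.09 and 0.75 in DMH, -0.36, 0.34 and 0.53 in VMH, and 1.75 and 1.07 in Arc, and no comparison passed. On the second probe it was at -1.82, -1.73 and -1.83 in DMH and detected on no VMH array and on 1 Arc array, at -3.64. That probe entered through DMH alone, so its difference is given as a description. Arc thus had the highest mean on one probe and lay close to background on the other.

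Lhx6, the factor of cortical interneurons from the medial ganglionic eminence, was the brightest member on every array, at 6.47 to 7.54. Its other 2 probes were detected on no array, with signals of -7.10 to -5.93. The 3 probes are shown because the bright one differs from them in its last bases.
Lhx6, bright probe, bases 1 to 30 (chr2:35937644-35937703): aatgtacaggtcatcgaggctatttattta
Lhx6, bright probe, bases 31 to 60, with the CA repeat in capitals: aaCACACACACACACACACACACACACACA
Lhx6, dim probe (chr2:35958379-35958438): ggcagcagaatagctgctacatcaagaaca
Lhx6, second dim probe (chr2:35937470-35937529): tcttatttgtgtaataaataaagttaatgc
The bright probe ends in a CA repeat of 28 bases and shares a run of 20 bases with 77 probes of other gene names. Array-wide, 24 probes held a CA run of 20 bases, and all 24 were detected on all arrays, with mean log2 signals of 5.34 to 7.78. The 52 probes with a TG run of that length had means of 5.08 to 7.96, whereas the median over all 55681 probes was -2.02. Lhx6 was the only member with such a run. The part of the repeat in the Lhx6 signal was not tested, and its values are not read here as a level of the gene.

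**Figure D3:**
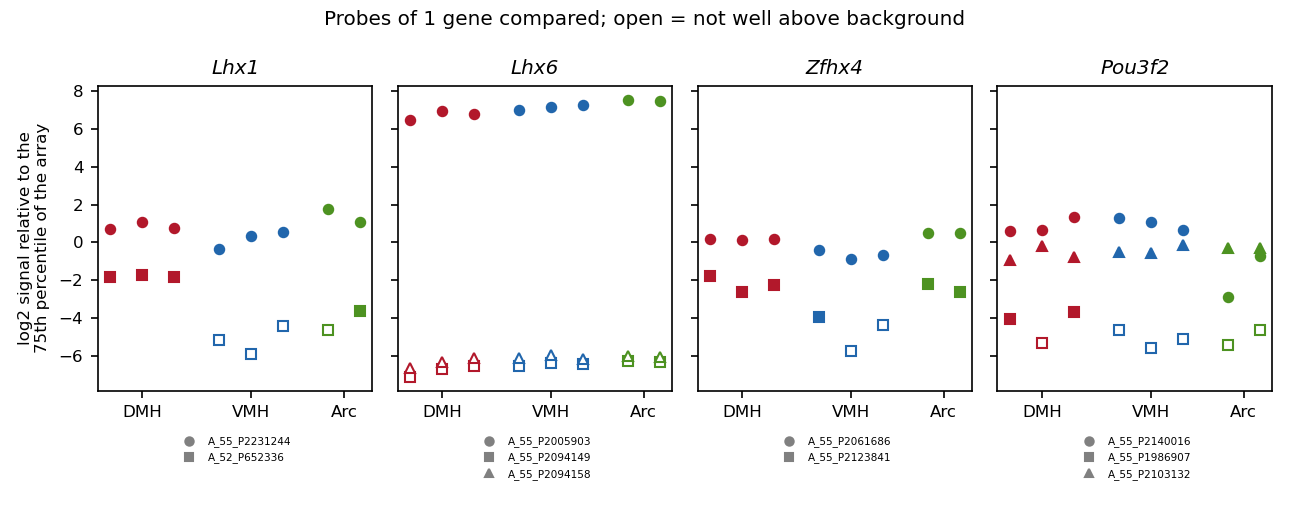
Log2 signal by array for each probe of Lhx1, Lhx6, Zfhx4 and Pou3f2, 1 marker shape per probe, with open points where the probe was not detected. Both Zfhx4 probes are lowest in VMH, the Lhx1 probes part in Arc, and the bright Lhx6 probe lies at 6.47 to 7.54 while its other probes stay between -7.10 and -5.93.

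The remaining LIM genes did not pass. Lhx5, a close relative of Lhx1, was at -2.10 to -1.04 in DMH, -4.47 to -2.02 in VMH, and -2.89 and -3.35 in Arc (F-test adjusted p = 0.263). Lhx9 was at -2.03 to -1.14 and Lmx1b, which serotonin and dopamine neurons need, at -0.33 to 0.42 over the 8 arrays, with overlapping groups. Lhx8, a factor of forebrain cholinergic neurons, was detected on 2 of 8 arrays, and Lmx1a on none. Otx2, a paired-class gene of the forebrain and midbrain, was at 0.56 to 1.46 with overlapping groups.

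Among POU genes none passed either. Pou3f2, which the neuroendocrine neurons of the paraventricular nucleus need, was at -2.89 and -0.71 in Arc, against 0.63, 0.65 and 1.34 in DMH and 0.67 to 1.27 in VMH. Both Arc arrays lay below the rest but differed from each other by more than the DMH and VMH arrays did, and the difference of -2.74 ± 0.52 SE did not pass (adjusted p = 0.0785). A second Pou3f2 probe, detected on all arrays, was at -0.31 and -0.28 in Arc, within the range of the other arrays of -0.91 to -0.14. Pou2f2, best known from B lymphocytes, was at 3.13 and 2.97 in Arc, above 2.16 to 2.69 in DMH and 2.08 to 2.42 in VMH (adjusted p = 0.175). On a second Pou2f2 probe, detected on all arrays, Arc was at -1.41 and -0.49 and overlapped VMH, at -1.68, -2.01 and -0.54. Pou3f3 was at -3.15 to -1.30. Pou3f4 spanned -4.26 to -0.33 within VMH alone, where replicate 1 was not detected, and Pou3f1 was detected on no array.

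No CUT-class gene passed. Onecut2 was at -2.94, -2.52 and -2.73 in VMH, against -1.93, 0.39 and -1.02 in DMH and -0.08 and -0.63 in Arc. The VMH arrays lay below all others, and the difference from the mean of the others was -2.13 ± 0.48 SE (adjusted p = 0.0975). Satb1, a chromatin organiser, was at -1.18, -2.95 and -4.15 in DMH and at -1.86 on VMH replicate 1, and was not detected on the other 2 VMH arrays or in Arc. Cux2, known from upper-layer cortical neurons, was at 0.89 to 1.69 in DMH, 0.14 to 1.14 in VMH, and 1.41 and 1.06 in Arc, with overlapping groups.

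Over all 35 measured members, the DMH arrays lay above every other array for 2 genes and below for 2, where 9.27% of all genes did either. Lhx6, whose values are not read as a level, is counted among those below in DMH and above in Arc. The VMH arrays lay above for none and below for 6, namely Bsx, Hmx2, Hmx3, Lhx1, Onecut2 and Zfhx4, against 9.51% of all genes either way. The Arc arrays, of which there were only 2, lay above for 7 and below for 6, against 16.7% of all genes. Each gene is counted on the probe that stood for it. On another probe of Pou2f2, Meis3 and Pou3f2, detected on all arrays, Arc overlapped the other nuclei. Of the 10 members that did not pass the filter, 6 were detected on no array: Barhl2, Lmx1a, Meis1, Meis2, Irx5 and Pou3f1. The other 4 were Barhl1, on 5 of 8 arrays, Six2 on 5, Irx3 on 3 and Lhx8 on 2. For these 10 genes a difference between nuclei was not measurable on this array.

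**Figure D4:**
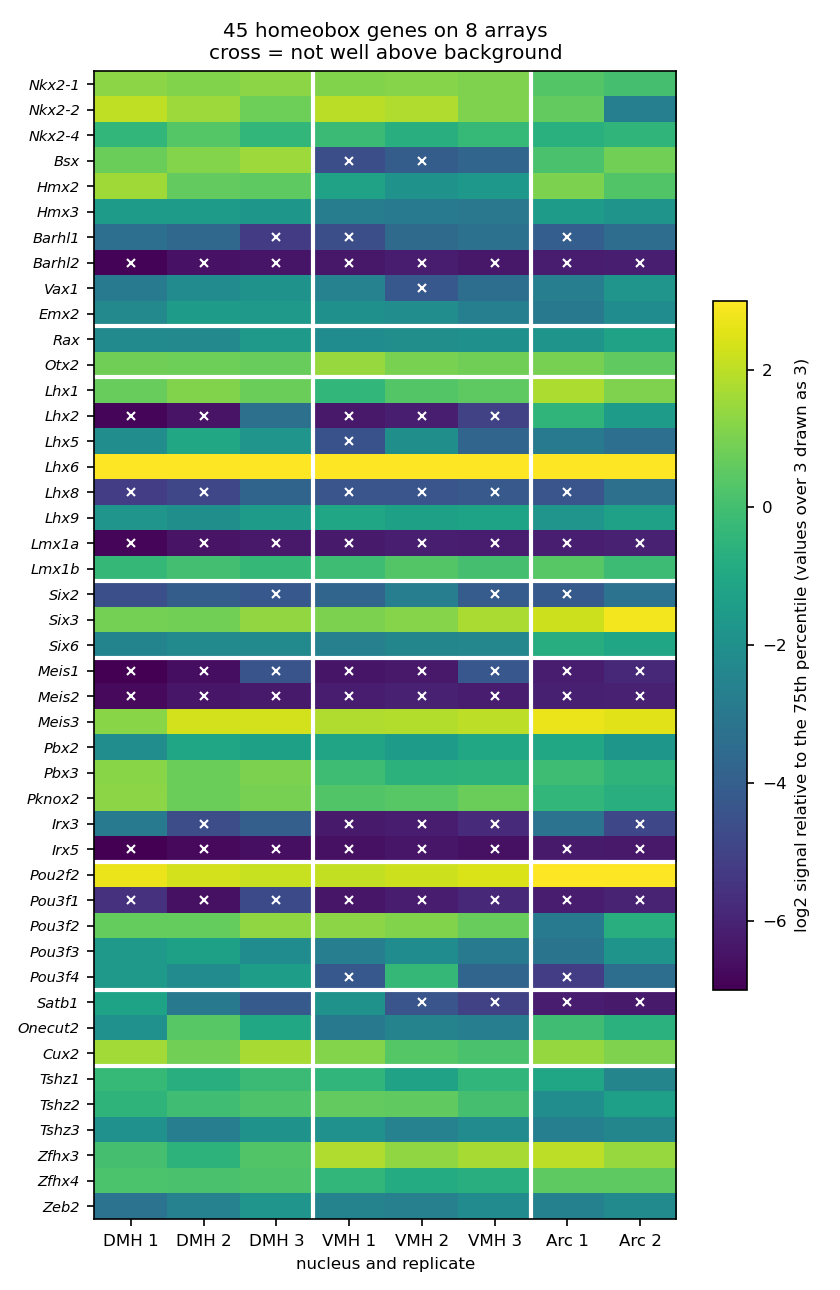
Heat map of the log2 signal of all 45 homeobox genes on the 8 arrays, grouped by class, with crosses where the probe was not detected and values above 3 drawn as 3. Bsx is crossed on VMH replicates 1 and 2, and the 6 genes dim on every array are crossed throughout.

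Homeobox genes that are neither members nor Dlx genes were described by a list of 153, of which 152 were on the array and 92 were tested. By the F-test 6 of these 92 differed among the nuclei, and 39 Hox genes within the list, of which 18 were tested, gave none, beside 1.72% of all genes. An unadjusted p under 0.05 was found for 2 of those 18 Hox genes, beside 17.7% of all genes. Prox1, a prospero-type factor, was at 1.67, 1.43 and 1.41 in DMH, -2.39, -3.09 and -2.43 in VMH, and -0.60 and -0.10 in Arc. It was 7.99-fold higher in DMH and 9.26-fold lower in VMH than in the other nuclei averaged (adjusted p = 0.00464 and 0.0017), and both calls passed in all 18 other settings tried, each array left out in turn among them. Like Bsx and Hmx2 it was lowest in VMH.

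Otp, needed for neuroendocrine neurons of the hypothalamus, was at -0.16 and -0.24 in Arc, -2.05 to -1.14 in DMH and -2.80 to -2.47 in VMH. Its differences from the mean of the others were 1.96 in Arc and -1.74 in VMH (adjusted p = 0.0272 and 0.017). The 5 markers of the paraventricular nucleus, of which Otp is one, summed to 2.43 to 3.03 in Arc, against 0.759 to 1.03 in DMH and 0.503 to 0.942 in VMH, and the part of such cells was not tested. Isl1, a LIM-class gene needed for Pomc expression, was at -1.96, -3.27 and -2.46 in DMH, -0.87, -1.28 and -1.36 in VMH, and 0.13 and -0.21 in Arc. It was 3.90-fold lower in DMH than in the mean of the others (log2 difference -1.96 ± 0.31 SE, adjusted p = 0.0381).

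Of 21 cofactor genes for LIM, sine oculis and Groucho-type partners, 18 were tested and 2 differed by the F-test, beside 1.72% of all genes, both of them LIM-only genes. LIM-only proteins lack a homeodomain and compete for the adaptors of LIM homeodomain factors. Lmo1 was at -2.93, -2.69 and -2.62 in VMH, against -0.41, -0.89 and -0.17 in DMH and -1.23 and -1.27 in Arc, and was 3.67-fold lower in VMH than in the mean of the others (adjusted p = 0.00883). Lmo4 was at 0.62 and 0.00 in Arc, against 2.02 to 2.25 in DMH and 2.23 to 2.38 in VMH, and was 3.74-fold lower in Arc (adjusted p = 0.0156). Lmo1 was also higher in DMH by 1.51 and Lmo4 in VMH by 1.11 (adjusted p = 0.0264 and 0.0412). The calls of Lmo1 in VMH and Lmo4 in Arc passed without each array in turn, except that Lmo1 had an adjusted p of 0.0516 without VMH replicate 1. The call of Isl1 was lost with any 1 of the 8 arrays left out (adjusted p of 0.0592 to 0.116). Those of Otp in Arc, Lmo1 in DMH and Lmo4 in VMH were each lost with any of 7 arrays left out, and that of Otp in VMH with any of 4, with adjusted p up to 0.161.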

How the data were processed

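Gene expression in pooled ZsGreen-labelled neurons was measured on 8 Agilent arrays, 3 of DMH, 3 of VMH and 2 of Arc, all on 1 slide. Groups and replicate numbers come from the labels. The deposited values are spot intensities of the red channel. Agilent Feature Extraction 11.5.1.1 subtracted the background and removed trends within each array, per the file headers, and no scaling between arrays had been applied. Its flags for detection, saturation and outliers were used as deposited. Probe positions are in mm9, per the file headers. RefSeq tables of GRCm38.p6 gave the promoters, and all 45 members matched a RefSeq symbol.

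From these intensities a log2 signal relative to the array's 75th percentile was computed over 59305 spots of 55681 probes, with outlier spots left out and spots of a probe averaged. A probe was called well above background on an array where a share of at least 0.5 of its spots was. Probes had to be so on every array of at least 1 nucleus, and the probe with the highest mean stood for its gene name. The limma package (version 3.58.1, functions lmFit and eBayes, R 4.3.3) fitted a mean per nucleus to 27422 genes over the 8 arrays, on values read with version 1.17.8 of data.table. There were 5 residual and 2.78 prior degrees of freedom, and the median residual SD was 0.355. The F-test among nuclei, each nucleus against the mean of the others, and each pair were adjusted by Benjamini-Hochberg over all genes within each test, with a threshold of 0.05. Intervals cover 95%. The number of arrays limits the precision. The fit was tested on simulated data.

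Named are the members past the threshold in the F-test or against the mean of the others, Nkx2-1, up to 2 past the threshold from each list of other homeobox genes and cofactors, and nucleus markers. Other members are given by their levels. A few genes picked by this rule are not reported here. The members, lists, tests and rule were chosen with earlier results of these data known. Fits of single probes were added after the data had been seen. The alternatives were another background correction (normexp, offset 50), quantile normalization, another percentile, a floor, other filters, the mean of probes, trended and robust variances, blocks for slide row and replicate number, and each array left out.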

Additional observations from a re-analysis of the deposited data

How the results depend on the processing

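Of the named differences, none changed sign under the alternatives or with an array left out. The lower value of Bsx in VMH and its difference from DMH and from Arc passed in all 17 settings that kept its probe. The 7 members called by the F-test became 12 with normexp, 3 with no filter on weak probes and 1 when the slide row was blocked. Members higher in DMH, 2 in number, became 1 with only probes well above background on all arrays, without a filter and with the slide row. The first of these settings leaves out Bsx, which was detected on 6 arrays, and Pbx3 passed there (adjusted p = 0.0286). The 1 member lower in DMH became 0 without a filter and with the slide row, and the count of 0 members higher in VMH became 1 with normexp and with trended, robust variances. The 1 member higher in Arc became 2 with normexp and with the mean of probes, 3 with quantile normalization, a floor and trended, robust variances, and 0 with the slide row. The 1 member lower in Arc became 4 with normexp and with trended, robust variances. It became 0 with the percentile over detected probes, without a filter, with the mean of probes and with the slide row. Apart from the left-out Bsx, the cause of these changes was not tested. Over all genes, the F-test called 728 with normexp, 724 with trended, robust variances, 262 of 34819 without a filter and 231 with the slide row, against 472.

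With each array left out in turn, which removes a degree of freedom, the F-test called 1 to 5 members. Calls numbered 0 to 2 higher and 0 to 1 lower in DMH, 0 to 1 higher and 1 to 4 lower in VMH, and 0 to 1 higher and 0 to 2 lower in Arc. Of the other homeobox and cofactor genes, 8 in the fit as reported, 2 to 6 were called.

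Samples of the same replicate number deviated together with correlations of 0.0723 to 0.185 in 7 pairs, and those of different numbers at -0.126 to 0.0153. Every sample correlated best with its own number, a hint from the data and not the design. Deviations were taken from the mean of each nucleus and so add up to 0 within it. The pairs are therefore not independent, and the negative values for different numbers are in part built in. With the replicate number as a block, which left 3 residual degrees of freedom, 3 members passed the F-test, 1 was higher in DMH, 2 were lower in VMH, 1 was higher in Arc, 0 were lower in Arc, and 2 of the other homeobox and cofactor genes passed. The block took the adjusted p of Six6 in Arc to 0.0869, of Tshz2 in Arc to 0.116, of Hmx3 and Zfhx4 in VMH to 0.0536 and 0.0984, and of Pbx3 in DMH to 0.0611, so the member higher in Arc was not Six6. Within rows of the slide, the difference in VMH was -4.63 and -5.14 for Bsx, -2.37 and -2.31 for Hmx2, -1.36 and -1.22 for Hmx3, and -1.02 and -0.97 for Zfhx4. In Arc it was 1.28 and 1.63 for Six6 and -1.24 and -2.51 for Tshz2. In DMH it was 2.39 and 3.62 for Bsx, 1.51 and 1.24 for Pbx3, and -1.82 and -1.50 for Zfhx3. With the slide row as a block, Bsx, Hmx2 and Hmx3 still passed in VMH, and Bsx in DMH. Adjusted p was 0.0543 for Six6 and 0.0866 for Tshz2 in Arc, and 0.0946 for Zfhx4 in VMH. In DMH it was 0.0731 for Pbx3 and 0.0698 for Zfhx3. Scaling moved the median of all genes by at most 0.02. Members not well above background have no measured difference.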

Other observations

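Markers of glia and of neurons were described by their summed linear signal relative to the 75th percentile. The 8 microglial markers summed to 111 to 148 in DMH, 158 to 187 in VMH, and 210 and 239 in Arc. By this sum, which the brightest genes dominate, the Arc arrays were highest and the DMH arrays lowest without overlap. By the F-test 0 of the 8 passed, beside 1.72% of all genes. Their median log2 difference from the mean of the others was 0.02 in DMH, -0.31 in VMH and 0.37 in Arc. The 9 astrocyte markers summed to 45.3 to 56.5 in DMH, 51.8 to 63.3 in VMH, and 49.5 and 56.9 in Arc, with overlapping groups. Of the 8 tested, 1 passed the F-test and 1 was called higher in DMH, beside 1.72% and 0.368% of all genes. The median log2 difference of the 8 was 0.49 in DMH, -0.15 in VMH and -0.34 in Arc. The 6 general neuron markers summed to 161 to 197 in DMH, 199 to 246 in VMH, and 239 and 246 in Arc. By the F-test 1 of the 6 passed, beside 1.72% of all genes. In Arc 0 were called higher and 1 lower, beside 0.193% and 0.419% of all genes. The median log2 difference of the 6 was 0.06 in DMH, 0.22 in VMH and -0.17 in Arc, so the median was lowest where the sum was not. The part of glia and neurons in the values of the homeobox genes was not tested.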
